A study of Mus musculus with 28 samples.

Results

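Binding of Ldb1, CTCF and Rad21 was described around 7 genes whose transcription follows the activity of olfactory neurons: S100a5, Pcp4l1, Fos, Fosb, Junb, Egr1 and Nr4a1. They were chosen by name, from knowledge of genes that odour or depolarisation induces, and with earlier results of these data known. They make up 7 of the 21779 protein-coding genes on the main chromosomes. For each of them every deposited peak within 10 kb and within 50 kb of the gene body was collected from all 11 peak lists. The study examined the cofactor Ldb1 in mouse olfactory neurons with RNA sequencing and with chromatin immunoprecipitation and sequencing (ChIP-seq). Only ChIP-seq peak lists were used here. The ChIP-seq cells were dissociated from the olfactory epithelium with papain, fixed with formaldehyde and then sorted. A peak reports binding and not expression, so nothing below says how strongly any of the genes was transcribed.

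Ldb1 was mapped in Lhx2 KO neurons that carried OMP-IRES-Cre, Lhx2fl/fl and the reporter Rosa-CAG-tdtom+/fl (2 libraries), in Olfr1507+ cells of M28-IRES-GFP mice (2 libraries) and in control mature neurons of OMP-IRES-GFP mice (3 libraries). CTCF (2 libraries) and Rad21 (2 libraries) were mapped in the same control genotype. Both the Cre and the control GFP were expressed from Omp, a gene of mature neurons, so the deletion of Lhx2 follows the onset of Omp expression. The labels list no Cre or tdTomato allele for the control mice. The Olfr1507+ cells all express the same odorant receptor, whereas the control neurons were not selected by receptor. The labels give neither the animals' ages nor whether replicate libraries are from different animals, so differences between libraries may be technical. In control neurons an Ldb1 region, meaning linked peaks of at least 2 of the 3 control libraries, lay within 10 kb of 6 of 6 markers of mature olfactory neurons and 4 of 4 of immature neurons. The same held for 1 of 5 markers of basal cells, 0 of 4 of sustentacular cells and 2 of 5 of glial, immune and vascular cells, where the share over all protein-coding genes was 39.6%.

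When an olfactory neuron fires, calcium and cyclic AMP signals reach the nucleus and switch on immediate early genes through factors such as CREB and SRF that are already present. Fos, Fosb and Junb encode subunits of the AP-1 transcription factor, Egr1 a zinc finger transcription factor, and Nr4a1 an orphan nuclear receptor. S100a5 encodes a calcium-binding protein and Pcp4l1 a small protein related to the calmodulin regulator Pcp4, and both are used as markers of odour-driven activity in these neurons. Ldb1 binds no DNA itself and is brought to enhancers by DNA-binding partners, among them the LIM-homeodomain protein Lhx2, while CTCF and the cohesin subunit Rad21 mark domain boundaries and loop anchors.

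Promoter sequences, 250 bases before to 50 bases after the RefSeq start, were matched for 6 of the 7 genes (assembly GRCm38.p6). Those of the 4 genes with a peak overlapping this window are shown, since they are the ones on which the binding data bear. They are Fosb (chr7:19309996-19310295, minus strand), Fos (chr12:85473640-85473939, plus strand), Nr4a1 (chr15:101266596-101266895, plus strand) and Pcp4l1 (chr1:171196219-171196518, minus strand). Each is written 5′ to 3′ along its gene. Capitals mark the half-site of the CREB element, TGACG, or CGTCA where the match lies on the other strand.
Fosb: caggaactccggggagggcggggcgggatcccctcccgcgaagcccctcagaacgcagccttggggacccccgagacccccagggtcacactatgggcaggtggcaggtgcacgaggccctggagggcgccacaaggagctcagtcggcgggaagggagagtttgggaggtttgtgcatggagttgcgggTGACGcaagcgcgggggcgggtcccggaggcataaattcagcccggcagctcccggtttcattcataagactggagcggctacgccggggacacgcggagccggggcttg
Fos: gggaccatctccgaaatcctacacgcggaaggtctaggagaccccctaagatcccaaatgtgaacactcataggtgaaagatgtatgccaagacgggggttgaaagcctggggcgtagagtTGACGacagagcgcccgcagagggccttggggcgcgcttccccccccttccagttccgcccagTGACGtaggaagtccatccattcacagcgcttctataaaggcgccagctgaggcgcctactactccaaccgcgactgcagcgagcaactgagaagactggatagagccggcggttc
Nr4a1: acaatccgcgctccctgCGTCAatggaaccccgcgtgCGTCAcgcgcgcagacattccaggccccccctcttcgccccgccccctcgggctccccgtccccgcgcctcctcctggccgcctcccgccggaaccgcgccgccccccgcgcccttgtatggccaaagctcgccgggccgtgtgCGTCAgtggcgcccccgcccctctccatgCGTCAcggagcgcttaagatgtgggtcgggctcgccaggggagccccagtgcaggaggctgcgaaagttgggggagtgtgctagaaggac
Pcp4l1: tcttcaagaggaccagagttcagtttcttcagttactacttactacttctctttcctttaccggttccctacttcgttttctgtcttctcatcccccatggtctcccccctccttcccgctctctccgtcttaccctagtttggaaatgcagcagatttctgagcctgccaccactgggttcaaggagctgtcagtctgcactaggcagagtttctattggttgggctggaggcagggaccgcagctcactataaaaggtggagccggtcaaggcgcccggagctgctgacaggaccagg

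Half-sites were counted on both strands. The Nr4a1 window held 4, at bases 18 to 22, 38 to 42, 182 to 186 and 211 to 215 counted from the first printed base. The Fos window held 2, at bases 122 to 126 and 185 to 189, and the Fosb window 1, at bases 191 to 195. The window of Junb held 1 as well, and those of S100a5 and Pcp4l1 held 0. Of the 32851 RefSeq promoter windows, 20.8% held at least 1. This half-site was added after the whole motifs had been searched. None of the 6 windows held the full CREB element TGACGTCA (1.79% of all windows), the AP-1 element TGANTCA (7.81%), the LIM-homeodomain core TAATTA (5.29%), the EGR element GCGTGGGCG (0.612%) or the NR4A element AAAGGTCA (1.51%). The serum response element (1.63%) and the EBF motif (0.904%), searched by name, had no match either. The AP-1, full CREB and half-site patterns can overlap one another. A missing match says only that these letters are not in the window.

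The promoter windows differed in which protein was found there. Only at Fosb did control Ldb1 lists have a peak in the window: all 3 control libraries had one, as did the second Olfr1507 library, and no Lhx2 KO library did. At Fos the peaks were those of both Rad21 libraries. At Nr4a1 the second library of Olfr1507 Ldb1, of CTCF and of Rad21 each had a peak, and at Pcp4l1 only the second Rad21 library did. The windows of S100a5 and Junb had no peak of any of the 11 lists. Each gene was represented by a single RefSeq start. For Nr4a1 and S100a5 this start lies well inside the annotated gene body, so peaks at the first base of the body fall outside the window. The Nr4a1 region described below, at that first base, is therefore not counted here.

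In control neurons, 6 of the 7 genes had an Ldb1 region within 10 kb and the same 6 had one within 50 kb, all except Egr1. Over all protein-coding genes the shares were 39.6% and 62.5%, and among the 12609 genes no longer than Pcp4l1, the longest of the 7, 26.9% had an Ldb1 region within 10 kb. In total 31 control Ldb1 regions lay within 50 kb of the 7 genes, 16 of them within 10 kb. Of the 31, 23 were found in all 3 control libraries, against 14851 of all 22789 control regions. Nr4a1 and S100a5 had 7 regions each within 50 kb, Pcp4l1 had 6, Fosb and Junb had 4 each, and Fos had 3. By peaks in the 3 control libraries, Nr4a1 had 8, 9 and 6 within 50 kb, S100a5 7, 7 and 6, Pcp4l1 5, 7 and 4, Junb 5, 6 and 4, Fosb 4, 4 and 3, and Fos 3, 4 and 3. The ranges of neighbours in this order overlap or touch.

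**Figure D1:**
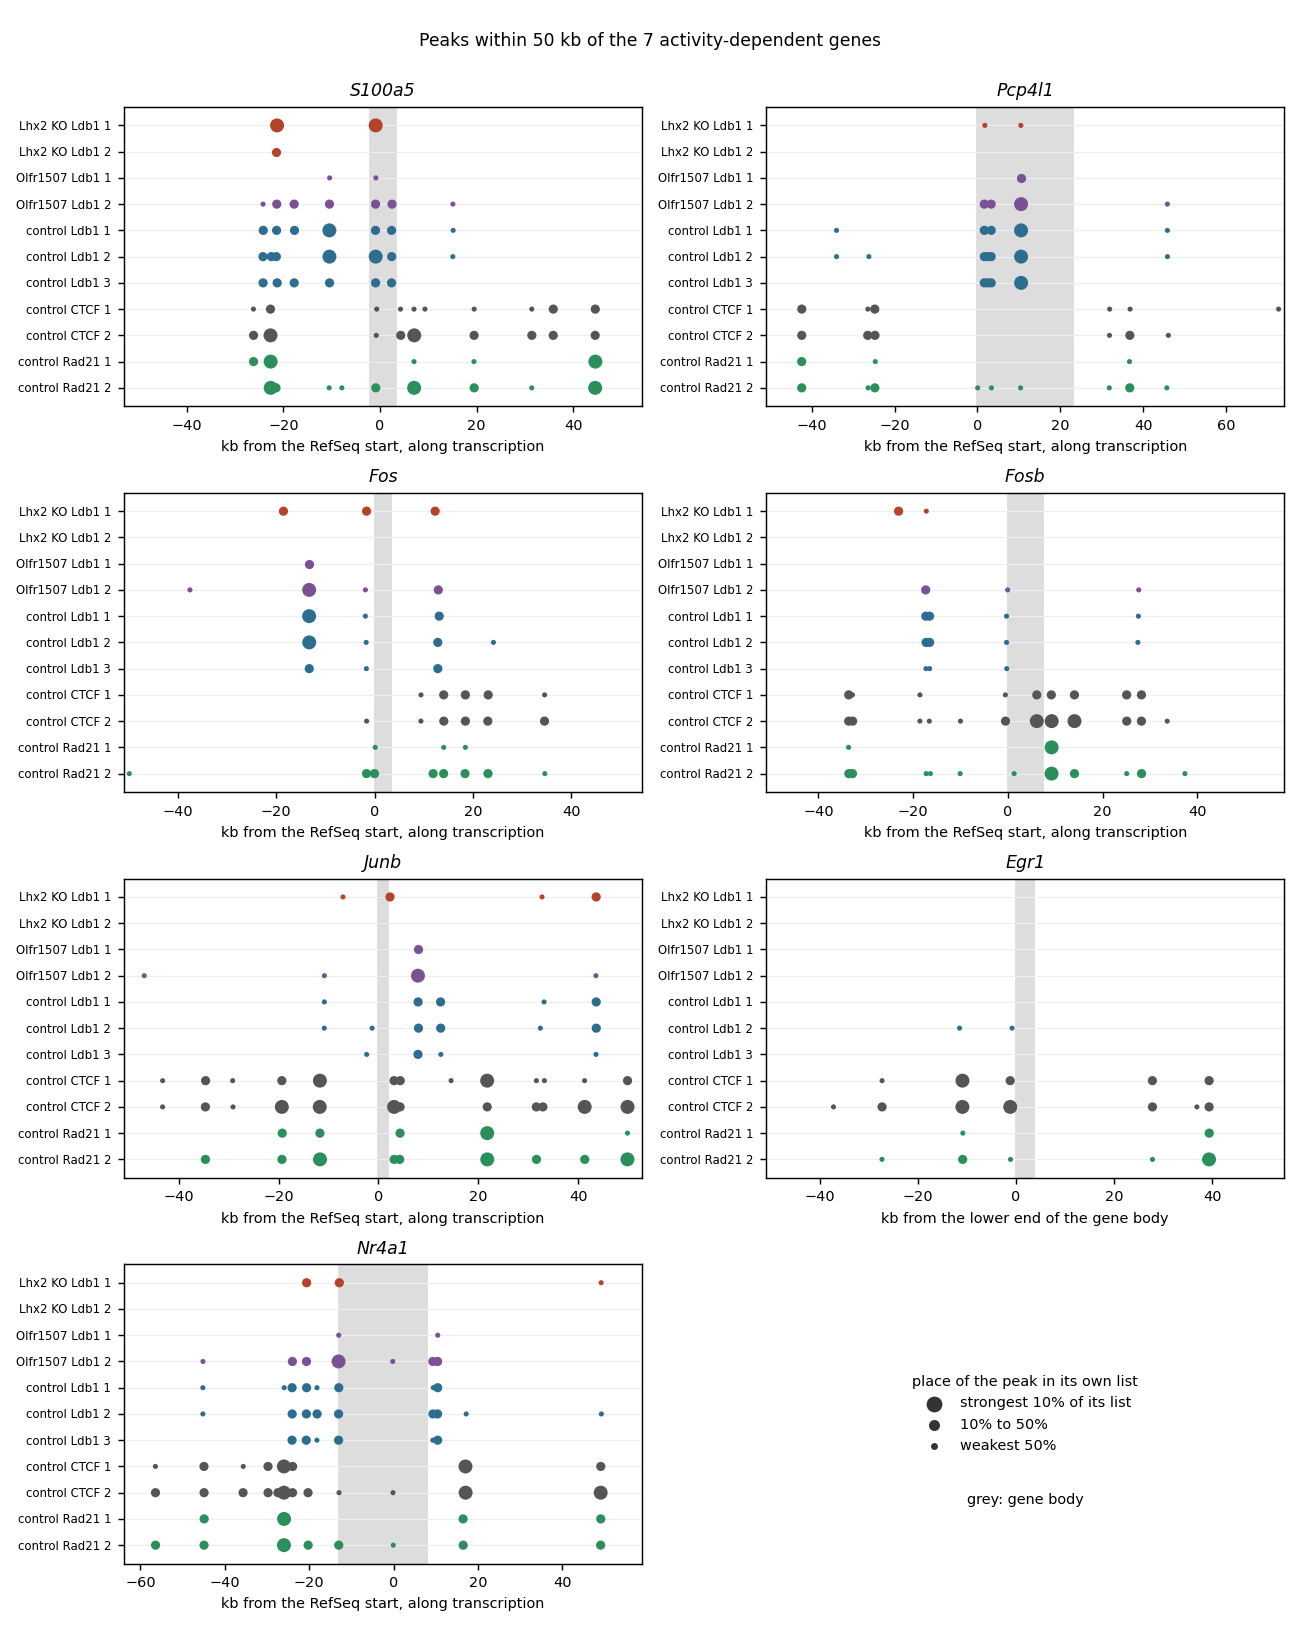
Positions of all peaks within 50 kb of each gene, 1 lane per library, in kb along transcription from the RefSeq start (for Egr1, from the lower end of its body); dot size gives the place of a peak in its own list and grey the gene body. Control Ldb1 peaks recur at the same places around 6 genes, while Egr1 has 2 weak peaks of 1 control library.

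Strength was read as the place of a peak in its own list, ordered by the score the authors gave each peak, and differed widely among the genes. A place is the rank of a peak as a percent of the length of its list, so a low percent is a strong peak. Peaks of equal score share the best rank of their tie, so the place of a weak peak in a list with many ties, such as those of Lhx2 KO, reads stronger than the end of the list. Control regions were also ordered by their mean place over the control lists and divided into 10 equal classes. Only 2 of the 31 regions were in the strongest class, 1 at Pcp4l1 and 1 at S100a5. The next in the order were regions of Fos and Nr4a1.

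Pcp4l1 carried the strongest Ldb1 region of the 7 genes. It lay inside the gene (chr1:171185593-171185930), 10.5 kb downstream of the start, and was number 295 in the order of all 22789 control regions. Its place was 76.3% in the first Lhx2 KO library, with no peak in the second, 14.3% and 1.98% in the Olfr1507 libraries, and 1.75%, 1.1% and 1.34% in the control libraries. It was among the top 542 peaks in neither Lhx2 KO library, but was so in the second Olfr1507 library and in every control library. The second Rad21 library also had a peak there, at 68.5%, and no CTCF library did. The score of the Lhx2 KO peak, 9, is the lowest of that list, so no peak of the list scored below it and 76.3% is the start of the last tie. Of the other 5 regions of Pcp4l1, 3 lay in the gene within 3.31 kb of the start, and the one at 1.64 kb also had a peak of the lowest score in the first Lhx2 KO library.

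S100a5 showed the opposite pattern at 2 regions, by place in the list alone. The lists differ widely in length, so a stronger place in Lhx2 KO does not show more binding. Whether binding itself rose was not tested. A region 21.4 kb upstream (chr3:90586890-90587387), inside the neighbouring gene S100a3, had rank 7 of 4290 in the first Lhx2 KO library (0.163%) and rank 118 of 542 in the second (21.8%). The first Olfr1507 library had no peak there and the second had one at 37.2%. In the control libraries its places were 24.9%, 23% and 33.8%, so it was of middling strength there. It also had a peak of the second Rad21 library, at 19.1%, and no CTCF peak. It was the single region near any of the 7 genes with a peak in both Lhx2 KO libraries. A region 0.922 kb upstream of the S100a5 start, but inside the annotated gene body, had rank 44 (1.03%) in the first Lhx2 KO library. It had no peak in the second, places of 94.1% and 16% in the Olfr1507 libraries, and 12.1%, 9.75% and 15.9% in the control libraries. Both CTCF libraries also had a peak there, weak in their lists at 85.6% and 66.3%, as did the second Rad21 library at 21.5%.

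The other strong S100a5 regions had no Lhx2 KO peak. The region 10.5 kb upstream, also in S100a3, had places of 84.4% and 17.2% in the Olfr1507 libraries and 9.49%, 7.3% and 13.5% in the control libraries. The second Rad21 library also had a peak there, at 73.8%. The region 2.39 kb downstream of the start had no peak in the first Olfr1507 library, 18.9% in the second, and 12%, 11% and 15.9% in the control libraries. S100 genes lie side by side here, and the region 10.5 kb upstream is equally the strongest within 10 kb of S100a2, S100a3 and S100a4, so a region cannot be given to 1 of them by position alone.

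Among the AP-1 genes, Fos had the strongest region, in the intergenic stretch 13.3 kb upstream of its start (chr12:85460398-85460750). It had no peak in either Lhx2 KO library, places of 36.5% and 9.71% in the Olfr1507 libraries, and 9.82%, 8.71% and 14.8% in the control libraries. The region 1.79 kb upstream of Fos had rank 447 of 4290 in the first Lhx2 KO library (10.4%) and no peak in the second. It was at 80.5% in the second Olfr1507 library and among the weaker peaks of the control libraries, at 77.3%, 64.6% and 81.1%. The second CTCF library, at 60.9%, and the second Rad21 library, at 34.2%, had a peak there too.

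At Fosb the promoter region, centred 0.285 kb upstream of the start (chr7:19310148-19310513), was in the weaker part of each list: 89.6% in the second Olfr1507 library and 64%, 58.6% and 76.2% in the control libraries. CTCF bound it at 57.2% and 21.7%. The Fosb region with the best mean place in control neurons lay 17.3 kb upstream, with places of 59.2% in the first Lhx2 KO library, 43.8% in the second Olfr1507 library and 49.7%, 36.1% and 54.8% in the control libraries. Ercc1 is the nearest other gene to it, 16.5 kb away. The second Rad21 library also had a peak in this region, at 56%.

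The Junb region with the best mean place in control neurons lay 7.98 kb downstream of its start (chr8:84970561-84970977), inside the neighbouring gene Prdx2. It had no Lhx2 KO peak, places of 35.1% and 8.99% in the Olfr1507 libraries and 41.9%, 35.5% and 40.1% in the control libraries. The other 3 Junb regions lay in Mast1, Rnaseh2a and Hook2. The one in Mast1, 43.6 kb downstream, had places of 45.6% in the first Lhx2 KO library, 53.8% in the second Olfr1507 library and 32.6%, 34.9% and 72.1% in the control libraries, so it stood above the Prdx2 region in 2 of the 3 control lists. The first Lhx2 KO library had 4 peaks within 50 kb of Junb, of which 1 lay at a control Ldb1 region, the one in Mast1.

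The strongest Nr4a1 region spanned the first base of the annotated gene body (chr15:101253661-101254037), 13 kb upstream of the RefSeq promoter start. Its place was 28.1% in the first Lhx2 KO library, with none in the second, 79.6% and 9.11% in the Olfr1507 libraries, and 11.4%, 10.3% and 13.7% in the control libraries. The second CTCF library, at 74.4%, and the second Rad21 library, at 44.1%, also had a peak there. A region 20.6 kb upstream was the other one with a peak in the first Lhx2 KO library, at 35.5%. Beyond the 3′ end, a region 10.5 kb downstream of the start had no Lhx2 KO peak, places of 89.5% and 18.1% in the Olfr1507 libraries and 23.3%, 16.7% and 38.8% in the control libraries.

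Egr1 (chr18:34861207-34864956) had the fewest Ldb1 peaks of the 7 genes. No Lhx2 KO or Olfr1507 library had an Ldb1 peak within 50 kb, and the same held for the first control library and the third. The second control library had 2 peaks, at 81.7% and 85.8% of its list, the nearer one 0.644 kb from the gene body. CTCF was present there, with a peak of each library 1.01 and 1.03 kb from the gene body, at places of 34.4% and 5.22%, where the second Rad21 library also had a peak at 86.1%.

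**Figure D2:**
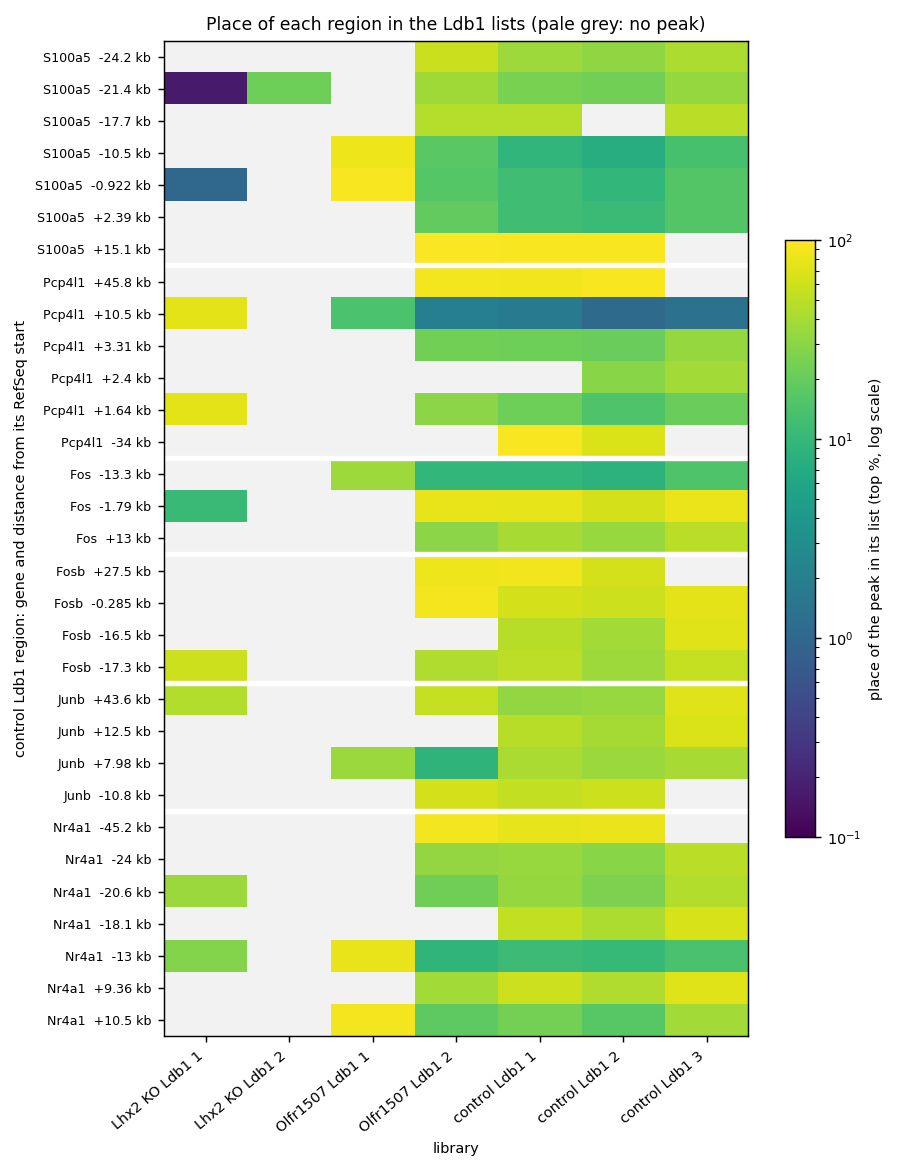
Place of the 31 control Ldb1 regions near 6 genes (rows, with distance from the RefSeq start) in each Ldb1 list (columns), as top percent on a log colour scale, dark for strong and pale grey for no peak. The Pcp4l1 region 10.5 kb downstream is light in the first Lhx2 KO list and dark in the control lists, and the S100a5 region 21.4 kb upstream is darkest in the first Lhx2 KO list.

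Which Ldb1 regions were also found without Lhx2 was compared next. Of the 31 regions, 9 (29.0%) had a peak in at least 1 Lhx2 KO library, against 13.2% of all control regions and a mean of 13.0% over the same classes of control strength. All 9 had a peak of the first Lhx2 KO library and 1 had a peak of the second, so the count is 1 without the first library. The 9 were 2 at S100a5, 2 at Pcp4l1, 2 at Nr4a1 and 1 each at Fos, Fosb and Junb. Regions near a gene are not replicates and the 31 share 6 neighbourhoods, so the share is a description.

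An Lhx2 KO peak lay within 10 kb of 5 of the 7 genes, against 15.6% of all protein-coding genes, and within 50 kb of 6, against 29.9%. The list of the first library had 16 peaks within 50 kb of the 7 genes, and 7 of them lay outside the control Ldb1 regions, against 32.6% of that whole list. They were 3 at Junb, 2 at Fos, 1 at Fosb and 1 at Nr4a1, and S100a5 and Pcp4l1 had none. The list of the second library, with 542 peaks, had 1 peak near the 7 genes, at S100a5.

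Numbers of Ldb1 peaks within 50 kb were then compared over libraries. S100a5 had 2 and 1 peaks in the Lhx2 KO libraries, against 7, 7 and 6 in the control libraries, a difference of -5.17. Nr4a1 had 3 and 0 in the Lhx2 KO libraries, against 8, 9 and 6 in the control libraries, a difference of -6.17. Pcp4l1 had 2 and 0 in the Lhx2 KO libraries, against 5, 7 and 4 in the control libraries. Fosb had 2 and 0 in the Lhx2 KO libraries, against 4, 4 and 3 in the control libraries. In these 4 genes every Lhx2 KO library was below every control library, as it was in 40.1% of all protein-coding genes. The groups overlapped at Fos, with 3 and 0 in Lhx2 KO and 3, 4 and 3 in control libraries, at Junb, with 4 and 0 in Lhx2 KO and 5, 6 and 4 in control libraries, and at Egr1, with 0 and 0 in Lhx2 KO and 0, 2 and 0 in control libraries. For each of the 4 genes the exact permutation test over the 5 libraries gave a two-sided p of 0.1, the smallest that 10 assignments allow (adjusted p = 0.379 over all genes, Benjamini-Hochberg). No gene of the genome could therefore pass the threshold of 0.05, and 0 had a raw p below it.

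List length moves with these counts: the Lhx2 KO lists held 4290 and 542 peaks, against 24877, 28879 and 16067 in the control lists, and the depth behind the lists is unknown. With every list cut to its 542 strongest peaks, S100a5 had 2 and 1 peaks in the Lhx2 KO libraries and 0, 0 and 0 in the control libraries, so its direction turned. Pcp4l1 kept its direction, with 0 and 0 in the Lhx2 KO libraries and 1, 1 and 1 in the control libraries. Both gave an exact two-sided p of 0.1 (adjusted p = 1). Of all genes, 0.854% were higher in every Lhx2 KO library at this length, as S100a5 was, and 1.49% lower in every one, as Pcp4l1 was. The other 5 genes had 0 peaks in at least 1 Lhx2 KO library and 0 in all control libraries.

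Without the second Lhx2 KO library, and with the others cut to 4290 peaks, Fos, Fosb, Junb and Nr4a1 had more peaks in the first Lhx2 KO library than in the control libraries. Junb had 4 peaks in the first Lhx2 KO library and 0, 0 and 0 in the control libraries. Fosb had 2 in the first Lhx2 KO library and likewise 0 in each control library. Fos and Nr4a1 had 3 each in the first Lhx2 KO library and 1 in each control library. These 4 genes were higher than in every control library, as were 19.8% of all genes. S100a5 was lower, with 2 in the first Lhx2 KO library and 3, 3 and 3 in the control libraries, as were 9.11% of all genes. Pcp4l1, with 2 in the first Lhx2 KO library and 1, 1 and 2 in the control libraries, overlapped. With 1 library against 3 no p below 0.25 is possible. At this length the 7 genes together had 16 peaks in the first Lhx2 KO library and 6, 6 and 7 in the control libraries. Sums of peaks have no like value over all genes here. Of the 7 genes, 6 had a peak within 50 kb in the first Lhx2 KO library and 4, 4 and 4 in the control libraries. By the same measure over all protein-coding genes, 29.3% had a peak in the first Lhx2 KO library. In the control libraries 21.0%, 20.9% and 20.7% did.

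**Figure D3:**
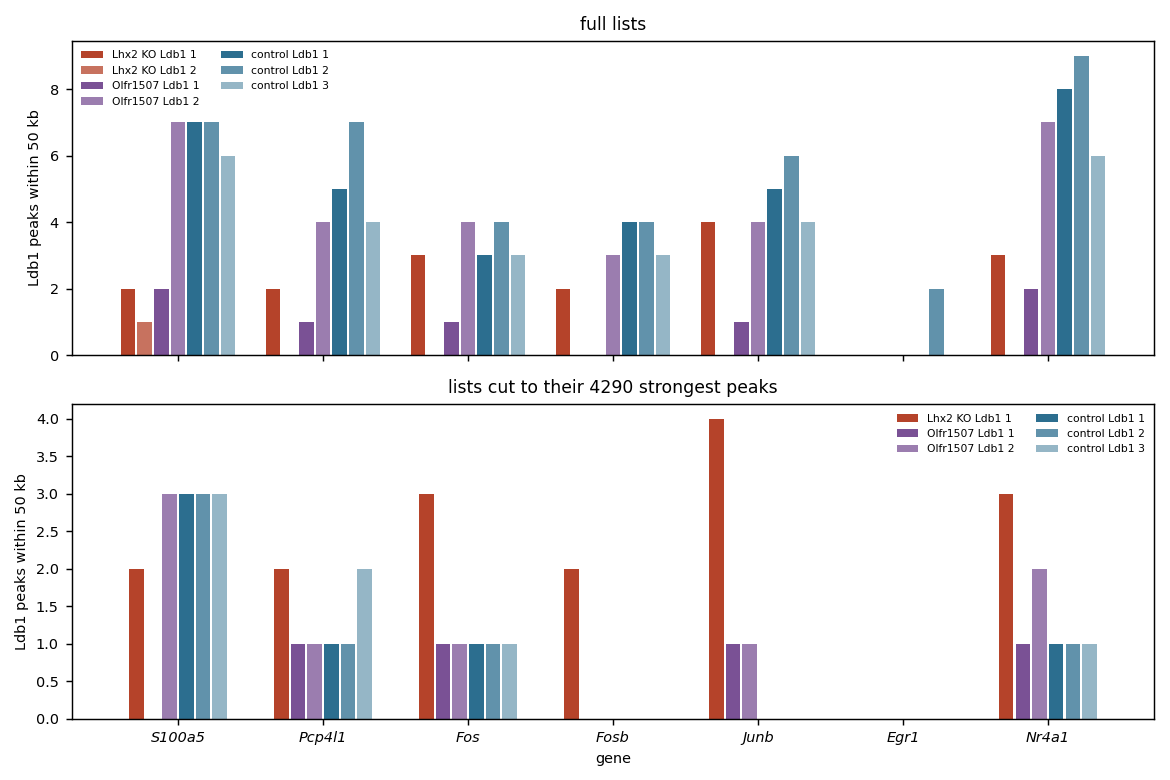
Number of Ldb1 peaks within 50 kb of each gene, 1 bar per library, in the full lists (top) and in lists cut to their 4290 strongest peaks (bottom, without the second Lhx2 KO list, which is shorter). Red bars (Lhx2 KO) are below the control bars for S100a5, Pcp4l1, Fosb and Nr4a1 in the full lists, and the first Lhx2 KO library is above them for Fos, Fosb, Junb and Nr4a1 in the cut lists.

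In the Olfr1507+ cells, which were compared with the same 3 control libraries, most of the regions were found. Of the 31 regions 26 (83.9%) had an Olfr1507 peak, against 73.7% of all control regions and a mean of 77.5% over the same classes of control strength. The first library, with 5095 peaks, accounted for 7 of them and the second, with 21250 peaks, for all 26. An Olfr1507 peak lay within 10 kb of 6 of the 7 genes, against 36.4% of all genes. The 5 regions with none, 2 at Pcp4l1 and 1 each at Fosb, Junb and Nr4a1, stood between number 11067 and number 21011 in the order of all control regions.

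Peak numbers within 50 kb in the 2 Olfr1507 libraries straddled or touched those of the control libraries at every one of the 7 genes. S100a5 had 2 and 7 peaks in the Olfr1507 libraries and 7, 7 and 6 in the control libraries, and Nr4a1 had 2 and 7 in the Olfr1507 libraries and 8, 9 and 6 in the control libraries. None of the 7 genes was lower in every Olfr1507 library, as 6.09% of all genes were, and their exact p-values ran from 0.2 to 1. With lists cut to 5095 peaks, Junb had 1 and 1 peaks in the Olfr1507 libraries and 0, 0 and 0 in the control libraries (exact permutation p = 0.1, adjusted p = 1), the region in Prdx2 described above. Of all genes, 2.20% were higher in every Olfr1507 library at this length, as Junb was, and 2.14% were lower in every one, which none of the 7 was.

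CTCF was close to all 7 genes. A CTCF region, with peaks of both libraries, lay within 10 kb of 7 of 7, against 56.5% of all genes. A Rad21 region, which also needs both libraries, lay within 10 kb of 5, all but Pcp4l1 and Egr1, against 31.6% of all genes. The first Rad21 list, with 10487 peaks against 28151 in the second, had no peak within 10 kb of either gene. The second list had 4 within 10 kb of Pcp4l1 and 1 within 10 kb of Egr1. It had a peak within 10 kb of all 7 genes, against 60.4% of all genes. Fosb had the most CTCF peaks within 10 kb, 4 and 5 in the 2 libraries, S100a5 had 4 and 3, and Egr1 and Pcp4l1 had 1 and 1 each. Among the 7 neighbourhoods, the highest Rad21 peak of the second library lay 26 kb upstream of Nr4a1, where Rad21 had places of 4.62% and 0.487% and CTCF 1.37% and 2.27%. That of the first library lay on the far side of S100a5, at places of 1.14% and 0.881%. No control Ldb1 region lay at either site. Likewise a site 9.23 kb downstream of the Fosb start, beyond the end of the gene, had Rad21 at 5.27% and 3.95% and no Ldb1 region.

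Of the 31 Ldb1 regions, 13 (41.9%) had a CTCF or Rad21 peak in at least 1 library, against 26.2% of all control regions and a mean of 25.8% over the same classes. The libraries were unequal: the second Rad21 library gave 11 and the first 0, and the second CTCF library gave 8 and the first 4. Of the 13, 6 had both proteins, 5 had Rad21 without CTCF and the other 2 had CTCF without Rad21, namely the Fosb promoter region and the Nr4a1 region 24 kb upstream.

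Related genes were looked up in the same way at 10 kb, where the share over all genes was 39.6%. Of 30 other immediate early genes 14 (46.7%) had a control Ldb1 region, and the strongest were at Ier5 and Ier2, which encode immediate early response proteins, and Dusp1, a phosphatase of MAP kinases. Of 26 regulators of activity-dependent transcription 20 (76.9%) had one, led by Crem, a CREB family factor, Nfatc3, a calcium-regulated factor, and Camk4, a calcium-dependent kinase. All 4 of the other activity-regulated genes of olfactory neurons, Lrrc3b, Kirrel2, Kirrel3 and Pcdh10, did. The strongest was at Lrrc3b, followed by the adhesion genes Kirrel2 and Pcdh10. The direction in which activity changes each gene was not considered. Of 16 other S100 genes 8 did. The median percentile of the strongest region, with 0 for genes without one, was 0 for the immediate early genes and 27.3 for the regulators. It was 81.3 for the 4 activity-regulated genes and 0 over all genes. Gene length differs among these lists and was not matched.

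For each gene the protein-coding gene most like it was the one with the smallest mean difference, over the 11 libraries, in the percentile of the strongest peak within 10 kb. For S100a5 this was Abhd16a, at 7.2 percentile points, against a median of 54.4 over all genes. Pcp4l1 was nearest to Morc2a at 3.93 points, Nr4a1 to Otub1 at 3.96, Fos to Ppara at 5.96 and Junb to Gtf2ird1 at 7.11. Fosb was nearest to Cct5 at 2.95 points, and Egr1 to Tmem260 at 0.915, where 7 of the 11 libraries had no peak at Egr1. The medians over all genes were 51.9 for Pcp4l1, 56 for Nr4a1, 40.4 for Fos, 50.5 for Junb, 36.8 for Fosb and 16.6 for Egr1. Absent peaks count as likeness in this measure. Each value is the smallest difference over all genes, so it must lie below the median. The gap between them therefore shows no special likeness.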

How the data were processed

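Of 28 samples, the 11 ChIP-seq libraries with a peak list were used; 14 RNA samples and 3 input samples were not analysed here. The deposited lists give a position and a score per peak; the score is the authors' own value, a whole number whose scale is not stated, and served only to order the peaks of each list. Lists belong to single libraries. The submitters' processing notes name cutadapt 1.9.1, Bowtie2 2.3.2, SAMtools 1.3.1, Picard, HOMER 4.7, STAR 2.5.3a and mm10, without roles; the labels and files used here do not state the peak threshold, control or filters. No read numbers were given, so depth is unknown.

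Only chromosomes 1 to 19, X and Y entered. Gene bodies and promoter starts came from RefSeq tables of GRCm38.p6, the assembly that mm10 names. Peaks sharing at least 1 base were linked; a region needs 2 libraries of its group. Control regions were ordered by mean percentile of score (absent = 0) and divided into 10 classes; equal scores share the best rank, and in shortened lists ties were kept in order of position. Distances run from the promoter start to the region's centre. Peak numbers per gene were compared over libraries by exact two-sided permutation, adjusted over 21779 genes (Benjamini-Hochberg). The 3 control Ldb1 libraries serve both comparisons. Replicate numbers are shared between groups, but the labels do not say that they mark an animal or day, and only 2 are shared, so libraries were not paired.

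Named were the 7 genes, up to 3 genes per other list by strength of control Ldb1 region, the gene nearest to a region, and the most alike gene. The 7 genes and all lists were chosen with earlier results of these data known. Counting and tests were tried on simulated data. Alternatives covered overlap, score threshold, window, libraries needed, list length and each library left out. Python 3.11.15, NumPy 2.4.6, pandas 2.3.3 and SciPy 1.17.1 were used.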

Additional observations from a re-analysis of the deposited data

How the results depend on the processing

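Keeping the top-scoring 50% of each list lowered the regions near the 7 genes to 20, those with an Lhx2 KO peak to 4, with an Olfr1507 peak to 15 and with a CTCF or Rad21 peak to 4, and the genes with a CTCF region to 4 and with a Rad21 region to 3. The gene body alone gave 3 genes with a control Ldb1 region, and 10 kb windows gave 16 regions. Leaving out 1 library at a time gave 1 to 9 regions with an Lhx2 KO peak, 7 to 26 with an Olfr1507 peak and 8 to 13 with a CTCF or Rad21 peak; the lowest values came without the first Lhx2 KO, the second Olfr1507 and the second Rad21 library. Genes lower in every Lhx2 KO library numbered 4 to 6 with 1 library left out, 1 with lists cut to 542 peaks and 1 with the shortest left out and the others cut to 4290. Genes lower in every Olfr1507 library numbered 0 to 6: 6 without the second Olfr1507 library, 4 without the third control library, 2 with the shortest list left out and the others cut to 16067 peaks, and 1 with the top-scoring 50%. With the replicate number as a block, 5 genes were lower in both pairs in Lhx2 KO and 4 in Olfr1507, at a smallest possible exact p of 0.5. The other 54 alternative values of these counts stayed within 1.5 times. Counts of genes that were higher, and the CREB half-site, were chosen after seeing the data. Depth is unknown, and fewer peaks in a short list cannot be told apart from weaker enrichment.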
